A study of Mus musculus with 18 samples.

Results

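The response shared by 4 chemicals was measured in the livers of female B6C3F1 mice, a hybrid mouse strain used in long-term cancer testing, after 13 weeks of exposure. The members are the genes whose liver RNA signal moved the same way under every one of the 4 chemicals. For each chemical the effect was the mean log2 signal of its 3 arrays minus that of its own 3 control arrays, less the median of that difference over all tested genes, and the common effect was the mean of the 4 reduced effects. Of 12169 genes tested, 6748 (55.5%) moved the same way in all 4, of which 3270 (26.9%) were higher and 3478 (28.6%) were lower, and the other 5421 did not.

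The series holds 18 arrays, 1 mouse to an array, in 6 groups of 3. 1,5-naphthalenediamine was given in feed at 2000 ppm, N-(1-naphthyl)ethylenediamine dihydrochloride in feed at 2000 ppm and pentachloronitrobenzene in feed at 8187 ppm, and these 3 chemicals share 1 untreated feed control group. 2,3-Benzofuran was given by gavage at 240 mg/kg on 5 days a week in corn oil, and its controls received corn oil by gavage at 5 ml/kg. Dosing began at 5 weeks of age, the livers were taken at 18 weeks, and all 18 mice shared the strain, sex and age. The labels class 1,5-naphthalenediamine and 2,3-benzofuran as positive for liver cancer in long-term tests and the other two chemicals as negative. Because the 3 feed chemicals are set against the same 3 control mice, a chance deviation of those controls moves 3 of the 4 effects together; each chemical's own value is therefore given for the genes named, in the order 1,5-naphthalenediamine, 2,3-benzofuran, N-(1-naphthyl)ethylenediamine, pentachloronitrobenzene.

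The liver clears foreign chemicals by oxidising them, coupling them to glutathione, glucuronic acid or sulfate, and exporting the products into bile or blood. Electrophilic products and oxidative stress release the transcription factor NRF2 from its inhibitor KEAP1, and NRF2 then binds antioxidant response elements near genes for glutathione S-transferases, quinone reductase and exporters. Other sensors, the aryl hydrocarbon receptor and the nuclear receptors CAR and PXR, act on overlapping sets of genes.

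Signals were the deposited log2 values of the arrays, on which each array's median over all probe sets lay between 4.25 and 4.35. The upper quartile of signal was 6.32 to 6.41 on the 12 treated arrays and 6.10 to 6.26 on the 6 control arrays, so these did not overlap. The median effect over the tested genes, which was taken off, stood at 0.04 for corn oil against feed control, 0.15 for pentachloronitrobenzene, 0.18 for 1,5-naphthalenediamine, 0.15 for N-(1-naphthyl)ethylenediamine and 0.11 for 2,3-benzofuran. Control probe sets for 18S ribosomal RNA read 6.11 to 6.67 on control arrays and up to 11.6 on treated arrays; 5 treated arrays (2 of N-(1-naphthyl)ethylenediamine, 2 of 2,3-benzofuran and 1 of 1,5-naphthalenediamine) exceeded all controls by more than a log2 unit. The RNA integrity number was 7.4 to 9.1 in controls and 7.7 to 9.4 in treated mice. Among the treated groups it was lowest with N-(1-naphthyl)ethylenediamine, at 7.7, 8.1 and 7.7. Array pairs correlated at 0.979 to 0.995 across all probe sets. Of the defining hepatocyte genes, 8 were tested, and their mean log2 signal was 13.16 to 13.25 in control and 13.15 to 13.39 in treated arrays, so the label of liver is borne out on every array. In whole liver, fewer cells of a type and less RNA per cell cannot be told apart.

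The common effect was tested for every gene with limma, with Benjamini-Hochberg adjustment over all 12169 genes, and a gene is called when its adjusted p is under 0.05. By that rule 2270 genes (18.7%) were higher and 2743 (22.5%) lower, 41.2% together, and 50.1% had an unadjusted p under 0.05. The called genes that also moved the same way in all 4 numbered 1977 higher (16.2%) and 2569 lower (21.1%); the direction requirement uses the same effects as the test, so these counts describe and do not add evidence. Tested singly, 1,5-naphthalenediamine had 12.7% of genes called higher and 18.7% lower, 2,3-benzofuran 14.8% and 14%, N-(1-naphthyl)ethylenediamine 7.08% and 9.55%, and pentachloronitrobenzene 3.34% and 9.3%. A stricter reading, in which each of the 4 chemicals passed on its own, left 63 higher genes (0.518%) and 462 lower genes (3.8%). The arrays of every chemical lay wholly above their controls for 266 genes (2.19%) and wholly below for 940 (7.72%). Without the 5 arrays of high 18S signal, the called genes of 1 direction numbered 1162 higher and 1856 lower, and those called in each chemical 2 and 19. Without feed control animal 29 they numbered 1572 and 1837, and 29 and 201. On the deposited scale, with no median taken off, 4752 genes were called higher and 1279 lower in all 4.

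**Figure D1:**
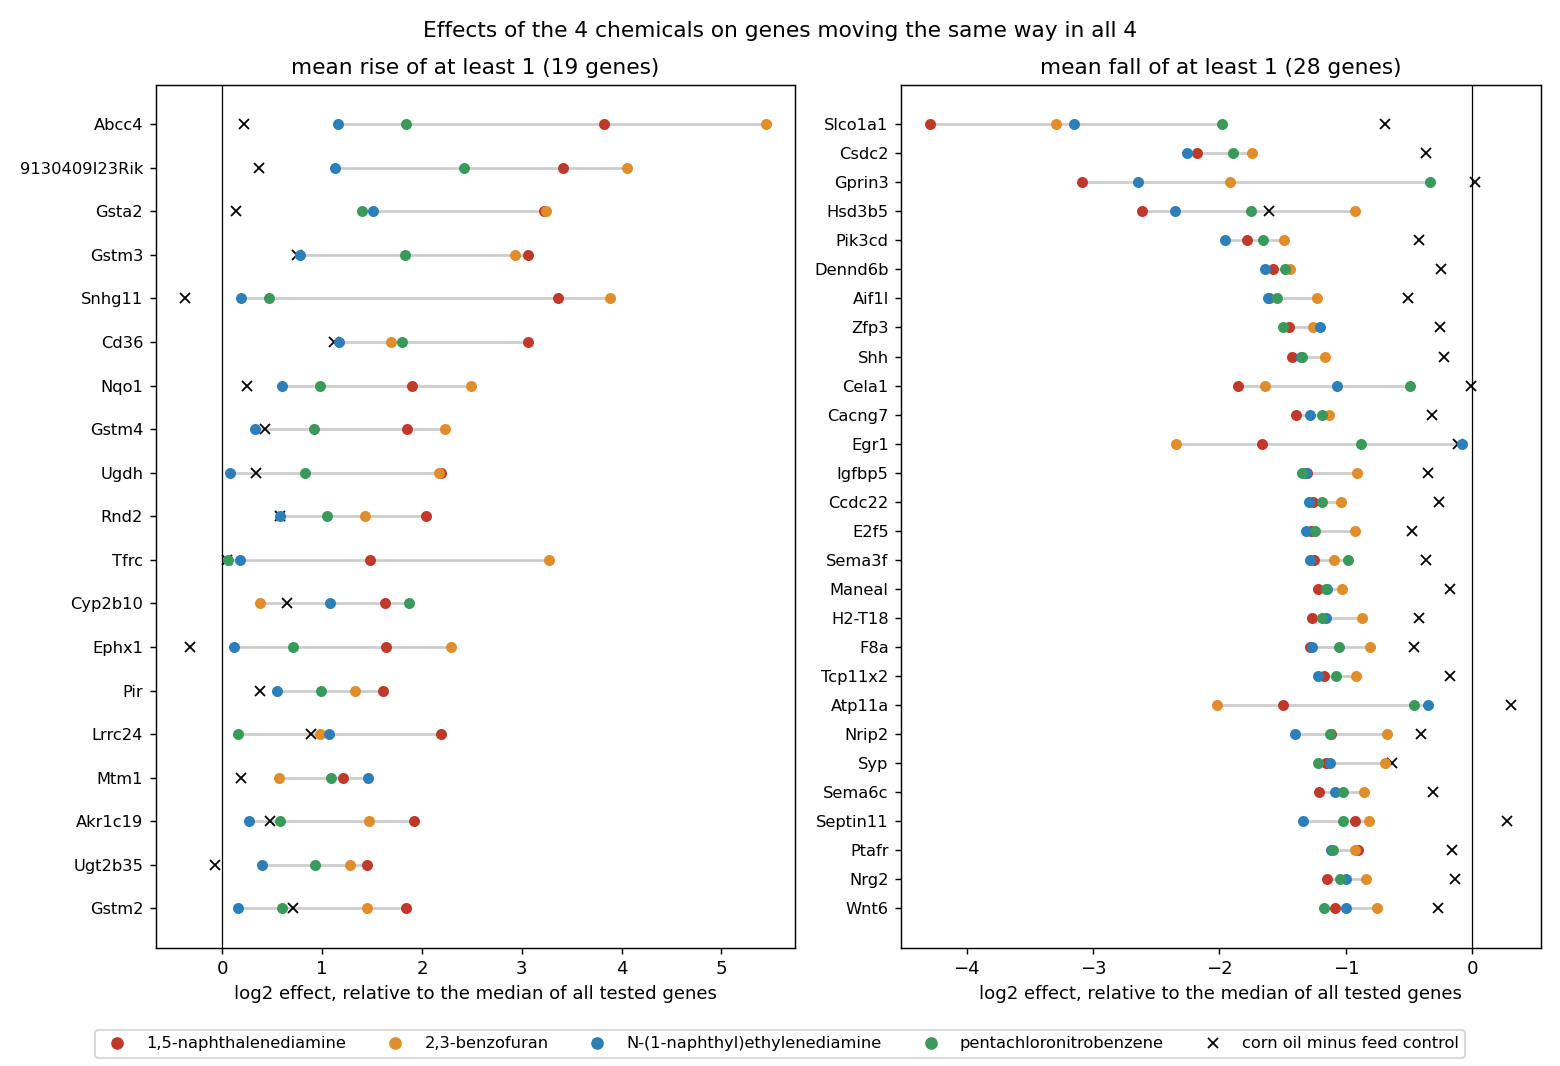
Reduced effect of each chemical (log2, chemical minus its own control less the median over all genes) for the 19 genes with a common rise of at least 1 (left) and the 28 with a fall of that size (right), 1 point per chemical and a cross for corn oil minus feed control. The points of the rises spread widely, with N-(1-naphthyl)ethylenediamine the smallest in 14, and those of most falls sit close together.

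Large shared rises and large shared falls differed in how evenly the 4 chemicals contributed. A common effect of at least 1 (log2) was reached by 19 called rises (0.156%) and 28 called falls (0.23%), and one of at least 0.5 by 230 (1.89%) and 481 (3.95%). Among the 19 rises, the strongest of the 4 effects was a median of 4.71 times the weakest, and an F test of equality of the 4 effects passed in 17 of 19 (89.5%), against 9.4% of all genes tested. Among the 28 falls the same ratio had a median of 1.41, and the F test passed in 3 (10.7%). Median effects over the 19 rises were 1.92, 2.17, 0.57 and 0.98, and over the 28 falls -1.29, -1.04, -1.29 and -1.18. N-(1-naphthyl)ethylenediamine was the weakest chemical in 14 of the 19 rises, and 2,3-benzofuran in 20 of the 28 falls. Without the size limit, unequal effects were found for 207 of the 1977 called rises (10.5%), near the 9.4% of all genes tested. They were found for 84 of the 2569 called falls (3.27%), below that share, and for 291 genes together or 2.39% of genes tested.

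The rises were led by Abcc4, which codes for the exporter MRP4 that pumps conjugates across the sinusoidal membrane into blood. Its log2 signals were 4.03, 3.91 and 3.77 in feed controls, 7.29, 8.10 and 8.29 with 1,5-naphthalenediamine, 6.02, 4.39 and 5.23 with N-(1-naphthyl)ethylenediamine and 5.77, 5.82 and 6.06 with pentachloronitrobenzene. In the gavage arm they were 4.09, 4.24 and 4.14 with corn oil and 9.94, 9.67 and 9.53 with 2,3-benzofuran. Every treated array lay above every control array, and the nearest was 1 N-(1-naphthyl)ethylenediamine mouse at 4.39. The common effect was 3.06 ± 0.19 (SE; 3 arrays a group), an 8.36-fold rise, with limma adjusted p = 1.35e-08 and single effects of 3.82, 5.45, 1.16 and 1.84. All control arrays read below the lowest array median of 4.25, so the fold rests on a dim baseline; with such values raised to that floor the common effect was 2.78.

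9130409I23Rik, a gene known only by its cDNA clone name, rose nearly as far, by 2.76 ± 0.17 (SE; limma adjusted p = 1.35e-08). Its signals were 5.58, 5.32 and 4.91 in feed controls, 8.72, 8.93 and 8.93 with 1,5-naphthalenediamine, 6.75, 6.66 and 6.24 with N-(1-naphthyl)ethylenediamine and 7.38, 8.05 and 8.08 with pentachloronitrobenzene. With corn oil they were 5.41, 5.18 and 6.43, and with 2,3-benzofuran 9.85, 9.87 and 9.80. No chemical overlapped its own controls, although 1 corn oil mouse at 6.43 was above the lowest N-(1-naphthyl)ethylenediamine mouse. The 4 effects were 3.41, 4.06, 1.13 and 2.42, each called on its own.

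Gstm3, a mu-class glutathione S-transferase, rose by 2.15 ± 0.17 (SE; limma adjusted p = 1.9e-07), and read 9.40, 9.08 and 9.61 in feed controls, 12.04, 12.78 and 12.98 with 1,5-naphthalenediamine, 10.07, 10.40 and 10.42 with N-(1-naphthyl)ethylenediamine, 10.90, 11.22 and 11.90 with pentachloronitrobenzene, 9.74, 10.53 and 10.18 with corn oil, and 13.33, 13.36 and 12.90 with 2,3-benzofuran. Its single effects were 3.06, 2.94, 0.77 and 1.83, and its other probe set gave a common effect of 2.23. Nqo1, the quinone reductase that is a standard NRF2 marker, read 6.43, 5.50 and 6.00 in feed controls, 7.55, 8.47 and 8.13 with 1,5-naphthalenediamine, 6.86, 6.60 and 6.74 with N-(1-naphthyl)ethylenediamine, 6.95, 7.13 and 7.24 with pentachloronitrobenzene, 5.87, 6.29 and 6.64 with corn oil, and 8.79, 8.95 and 8.84 with 2,3-benzofuran. Its common effect was 1.49 ± 0.15 (SE), with effects of 1.90, 2.49, 0.60 and 0.98, and that of N-(1-naphthyl)ethylenediamine was not called on its own, although its 3 arrays lay above the 3 controls. Pir, an iron-dependent nuclear protein, had signals of 6.82, 6.44 and 6.40 in feed controls, 8.18, 8.56 and 8.27 with 1,5-naphthalenediamine, 7.45, 7.18 and 7.14 with N-(1-naphthyl)ethylenediamine, 7.68, 7.66 and 7.73 with pentachloronitrobenzene, 6.76, 7.06 and 7.11 with corn oil, and 8.46, 8.42 and 8.35 with 2,3-benzofuran. All 4 of its effects (1.61, 1.33, 0.55 and 0.99) were called and none of its groups overlapped the controls. In all 3 genes N-(1-naphthyl)ethylenediamine had the smallest value.

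**Figure D2:**
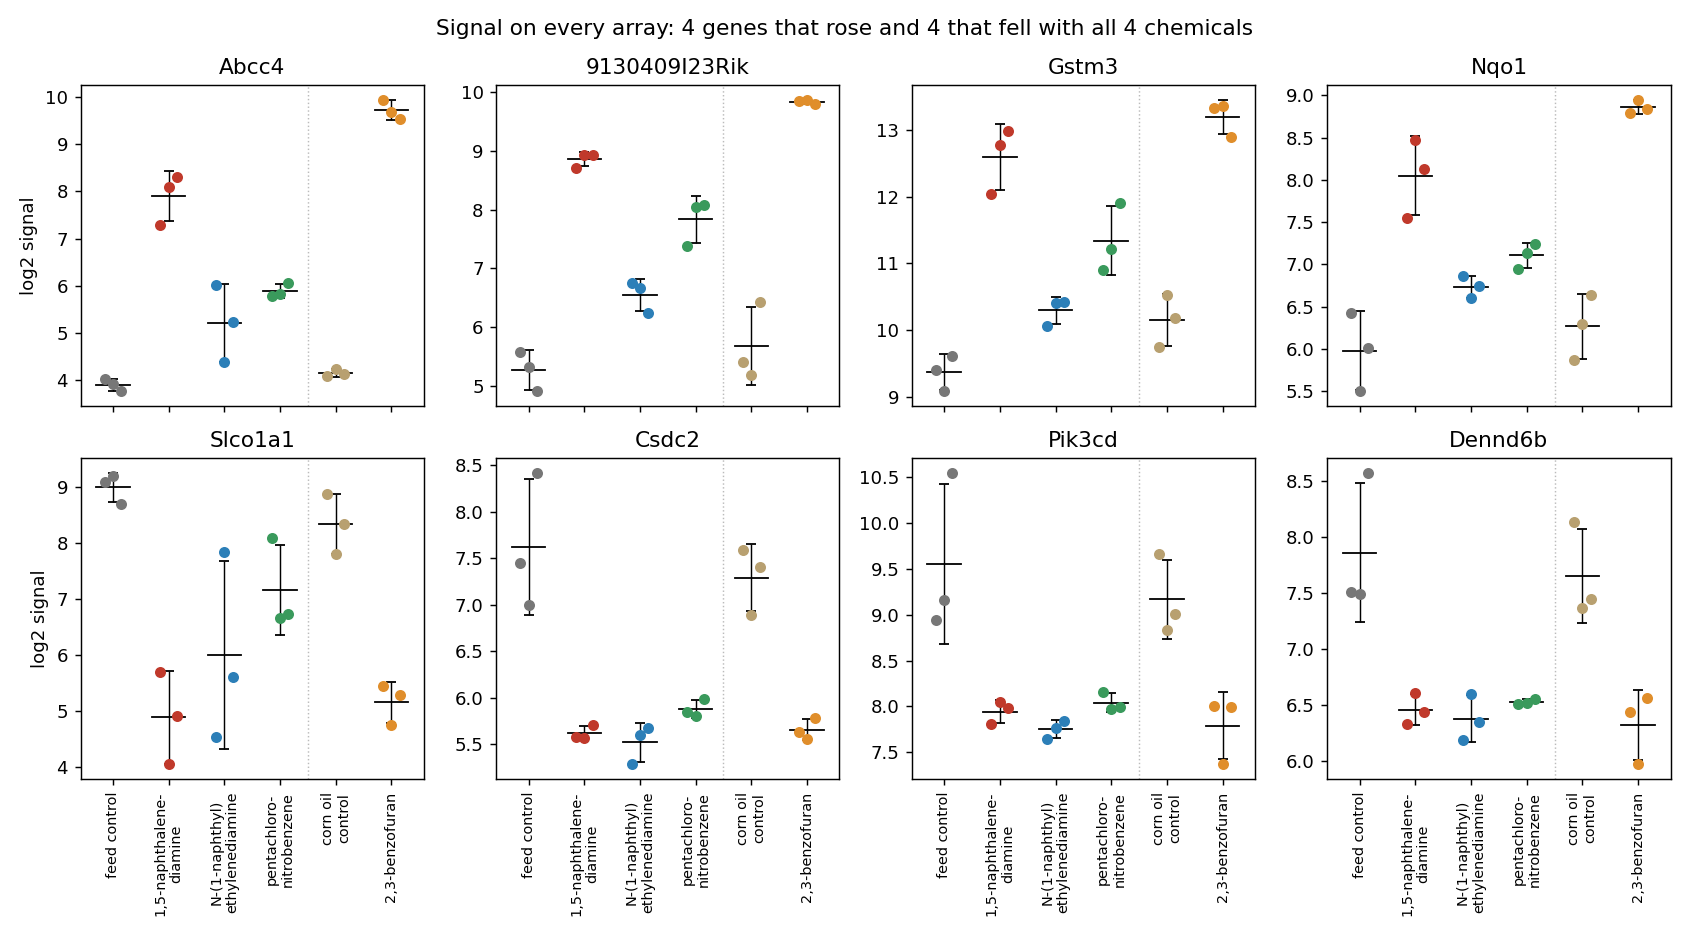
Deposited log2 signal of each of the 18 arrays for 8 genes of the shared response, 1 panel per gene and 3 points per group, with a line at the mean and bars of 1 SD. Abcc4, 9130409I23Rik, Gstm3 and Nqo1 are higher in all 4 chemicals than in their own controls, and Slco1a1, Csdc2, Pik3cd and Dennd6b are lower.

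The list of 26 tested NRF2 targets had 21 members called higher and none lower, against 18.7% of all genes called higher; its median common effect was 0.76 and that of all genes 0.01. Its called count was 20 to 25 over the scalings and controls tried. The median effect per chemical was 1.07, 1.38, 0.14 and 0.53. Only 16 of the 21 rose in all 4, and 4 were called in each chemical separately. The other 5 of the 21 each had a value below 0 with N-(1-naphthyl)ethylenediamine. Aox1, aldehyde oxidase, had effects of 1.99, 2.75, -0.16 and 1.04. Gclc, the catalytic subunit of the first enzyme of glutathione synthesis, was not called, with effects of 0.75, 0.76, -0.61 and 0.16 (common effect 0.27 ± 0.13 (SE), limma adjusted p = 0.108). Srxn1, which restores oxidised peroxiredoxins, had 1.20, 1.75, 0.20 and 0.66. Its dimmer probe sets gave common effects of 0.59, -0.22 and 0.83, and -0.21, -0.15 and -0.10 with N-(1-naphthyl)ethylenediamine. Ephx1, microsomal epoxide hydrolase, had 1.64, 2.29, 0.11 and 0.71. Gclc, Srxn1, Ephx1 and Gsta2 below were chosen for mention after their values were seen.

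Of 20 tested glutathione S-transferases, 13 were called higher (65%, beside 18.7% of all genes) and none lower. The median was 0.43, and 10 rose in all 4. The called count ranged from 7 to 19 over the scalings and controls tried. This list overlaps that of the NRF2 targets (Gsta1, which was not tested, is on both), so their counts are not taken as independent. Gsta2, an alpha-class enzyme, had effects of 3.23, 3.25, 1.51 and 1.40, each called. Gstm2 signals were 8.37, 8.34 and 8.25 in feed controls, 10.25, 10.25 and 10.50 with 1,5-naphthalenediamine, 8.52, 8.68 and 8.67 with N-(1-naphthyl)ethylenediamine, 9.04, 9.09 and 9.07 with pentachloronitrobenzene, 9.14, 8.94 and 9.12 with corn oil, and 10.66, 10.82 and 10.40 with 2,3-benzofuran. The corn oil mice were as high as the pentachloronitrobenzene mice, and Gstm2 was among the 9 genes (0.074%) called higher in corn oil than in feed controls. Gstp1, the pi-class enzyme, had effects of 1.12, 1.30, 0.10 and 0.58, and Gstm1 1.20, 1.30, 0.21 and 0.65. Neither Gstp1 nor Gstm1 was called for N-(1-naphthyl)ethylenediamine alone. Mu-class genes are close in sequence, so their probe sets may share signal.

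Ugdh makes UDP-glucuronic acid, the donor for glucuronidation; its effects were 2.19, 2.17, 0.08 and 0.83, the N-(1-naphthyl)ethylenediamine arrays (9.76, 9.36 and 9.74) overlapping the feed controls (9.54, 9.35 and 9.28). Of 12 tested glucuronidation genes 5 were called higher (41.7%, beside 18.7% of all genes) and 2 lower (16.7%, beside 22.5%), and 9 had unequal effects. The transferase Ugt2b35 rose by 1.02 ± 0.10 (SE; effects 1.45, 1.28, 0.40 and 0.93). Slc35d1, which carries the donor into the endoplasmic reticulum, rose by 0.67 ± 0.08 (SE; effects 0.90, 1.16, 0.26 and 0.38). Of 9 genes that supply NADPH, 2 were called higher (22.2%, near the 18.7% of all genes), both of the pentose phosphate pathway. Tkt, transketolase, had effects of 0.85, 0.99, 0.36 and 0.43, each called, and Pgd had 1.08, 1.03, 0.35 and 0.34. Of 12 ABC exporters, 4 were called higher (33.3%, beside 18.7% of all genes) and none lower. Abcc3, MRP3, was the even one.

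Abcc3 read 10.37, 10.37 and 10.11 in feed controls, 11.21, 11.39 and 11.45 with 1,5-naphthalenediamine, 11.02, 10.93 and 11.09 with N-(1-naphthyl)ethylenediamine, 10.85, 11.20 and 11.14 with pentachloronitrobenzene, 10.23, 10.45 and 10.49 with corn oil, and 11.20, 11.10 and 11.23 with 2,3-benzofuran. No treated array overlapped a control array. Its effects were 0.89, 0.68, 0.58 and 0.64, with a common effect of 0.70 ± 0.07 (SE; limma adjusted p = 2.64e-06) and no inequality called (limma F, adjusted p = 0.168). Thus the exporter with the larger rise, Abcc4, was uneven and the one with the smaller rise was not called uneven.

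Antioxidant response elements were looked for as the letters TGACNNNGC on either strand in the 250 bases before the annotated start, in RefSeq promoter windows of GRCm38.p6. The letters occurred in 10.2% of all 32851 windows in the table. Of the called genes with a window, 13.8% of 1664 risers and 13.9% of 1955 fallers had a match in any of their windows, beside 14.0% of 9805 tested genes. Among the rises of at least 1, 4 of 17 genes had one, and among the falls of that size 1 of 20. The 4 risers are shown because they include the largest rises. Each stretch reads along the gene's own strand, only 1 match per gene is printed, and that match is in capitals.
9130409I23Rik, chr1:181051126-181051174, plus strand, 91 bases upstream: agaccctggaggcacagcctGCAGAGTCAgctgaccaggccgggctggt
Abcc4, chr14:118676932-118676974, minus strand, 23 bases upstream: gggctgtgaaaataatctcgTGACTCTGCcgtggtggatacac
Pir, chrX:164269197-164269245, plus strand, 214 bases upstream: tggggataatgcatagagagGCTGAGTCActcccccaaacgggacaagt
Ugdh, chr5:65435946-65435994, minus strand, 132 bases upstream: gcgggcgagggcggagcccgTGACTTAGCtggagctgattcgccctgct
The printed match lies on the gene's own strand in Abcc4 and Ugdh and on the opposite strand in 9130409I23Rik and Pir. 9130409I23Rik had further matches at 80 bases (own strand) and 159 bases (opposite strand). The one at 80 bases stands in lower case in the printed stretch. On the opposite strand, Ugdh had another match at 94 bases, and Abcc4 another at 25 bases in a different promoter window. A match describes these letters and is no evidence of binding, and the share among all called risers was no higher than among all tested genes.

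A second group of risers was smaller and more even. Mtx3, a metaxin of the mitochondrial outer membrane, read 5.68, 5.80 and 5.42 in feed controls, 6.73, 7.54 and 7.18 with 1,5-naphthalenediamine, 7.14, 6.86 and 6.31 with N-(1-naphthyl)ethylenediamine, 6.37, 6.42 and 6.55 with pentachloronitrobenzene, 6.03, 5.88 and 5.97 with corn oil, and 6.53, 7.00 and 7.50 with 2,3-benzofuran. All treated arrays lay above all controls, and the lowest was 1 N-(1-naphthyl)ethylenediamine mouse at 6.31. The common effect was 0.98 ± 0.15 (SE; limma adjusted p = 0.000116), the 4 effects were 1.34, 0.95, 0.98 and 0.67, and a second probe set gave 0.92. Eppk1, the cytoskeletal linker epiplakin, had effects of 0.99, 0.61, 0.70 and 0.84, and Manba, lysosomal beta-mannosidase, had 1.14, 0.66, 0.70 and 0.79. Both were called in each chemical. Ddit4, a stress-induced inhibitor of mTORC1, had effects of 0.97, 1.14, 0.81 and 0.64 and no overlap with controls, but passed on its own in 2 of the 4. Smim22, a small membrane protein, rose by 0.96 ± 0.13 (SE; effects 1.13, 0.91, 1.04 and 0.77), but its probe set is of a kind that can bind related transcripts, and the gene's other probe set gave -0.20.

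Cd36, the fatty acid translocase, rose by 1.93 ± 0.20 (SE; limma adjusted p = 4.01e-06). It read 7.57, 6.49 and 6.07 in feed controls, 9.77, 9.90 and 10.16 with 1,5-naphthalenediamine, 8.61, 8.00 and 7.50 with N-(1-naphthyl)ethylenediamine, 8.38, 8.91 and 8.66 with pentachloronitrobenzene, 7.62, 7.81 and 8.17 with corn oil, and 9.42, 10.03 and 9.54 with 2,3-benzofuran. The corn oil controls lay above every feed control, by 1.12 (limma adjusted p = 0.227), and 1 N-(1-naphthyl)ethylenediamine mouse at 7.50 fell below the highest feed control. All 4 effects (3.06, 1.69, 1.17 and 1.80) were called, and the second probe set gave a common effect of 2.10. In the list of 15 genes of lipid uptake and storage, 5 were called higher (33.3%, beside 18.7% of all genes). A further 2 were called lower (13.3%, beside 22.5%). Fitm1, which promotes lipid droplet formation, rose by 0.95 ± 0.10 (SE), with effects of 1.74, 1.09, 0.51 and 0.48.

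Lists of targets of the other sensors gave mixed results. Of 4 aryl hydrocarbon receptor targets, 3 were called higher (75%, beside 18.7% of all genes), with a median of 0.77. Only 2 of them, Cyp1a2 and Nqo1, rose in all 4, and all 4 targets had unequal effects. Nqo1 is also an NRF2 marker, so this list is not separate from the NRF2 targets. Cyp1a2, an aryl hydrocarbon receptor target that oxidises aromatic amines, had effects of 1.39, 0.01, 1.26 and 0.86, so its common effect of 0.88 ± 0.08 (SE) came from the 3 feed chemicals. Cyp1a1, a highly inducible target of that receptor, had a mean signal of 6.99 ± 0.97 (SD, n = 3) with 1,5-naphthalenediamine and lay under the lowest array median of 4.25 in the other 5 groups, at means of 3.66 to 3.94, which have no order. Of 19 CAR and PXR targets, 5 were called higher (26.3%, beside 18.7% of all genes), each in all 4, and 2 lower (10.5%, beside 22.5%). Their median was 0.08. The cytochrome P450 gene Cyp2b10 was chosen for mention after its values were seen. It rose by 1.24 ± 0.24 (SE; effects 1.63, 0.38, 1.08 and 1.87), with no inequality called (limma F, adjusted p = 0.158). The effect of 2,3-benzofuran was not called on its own, and a second probe set gave 1.13. Tfrc, the transferrin receptor that brings in iron, had 1.48, 3.27, 0.18 and 0.06. Its other, dimmer probe set gave a common effect of 0.15, which was not called, with effects of -0.10, 1.27, -0.26 and -0.29. Cyp1a2, Cyp1a1 and Tfrc pass the test on the mean of 4 effects while 1 to 3 chemicals carry it.

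**Figure D3:**
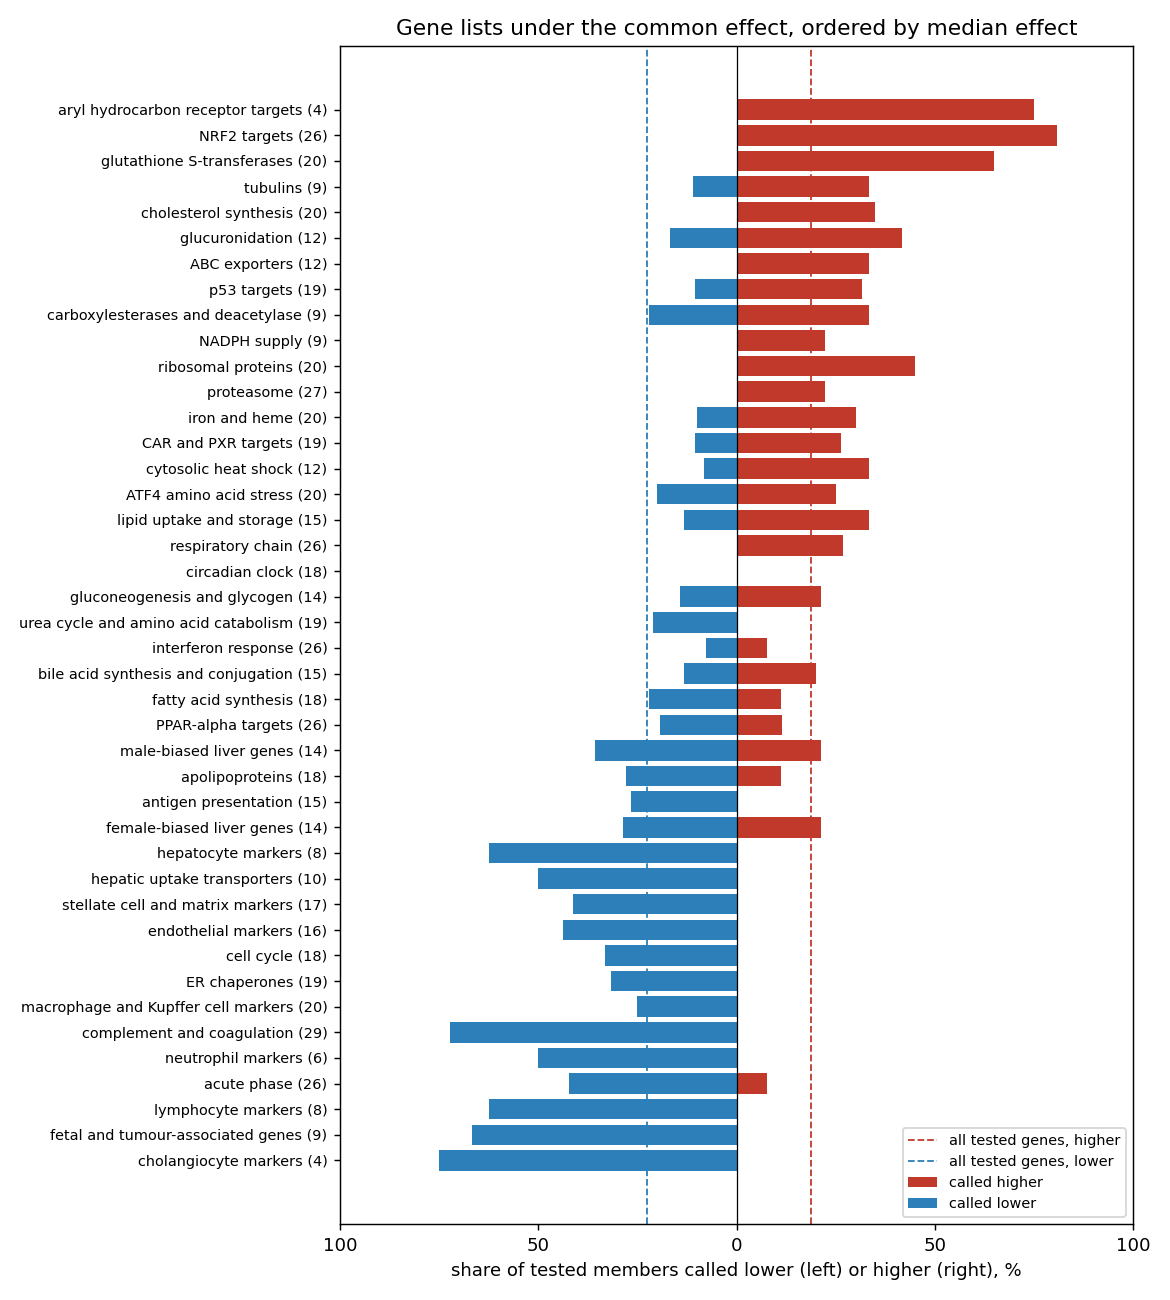
Share of the tested members of each gene list (percent) called lower (left) or higher (right) for the common effect, with the number tested beside each name and dashed lines at 18.7% higher and 22.5% lower for all tested genes. NRF2 targets reach 80.8% higher, and complement and coagulation genes 72.4% lower.

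The largest fall was in Slco1a1, the sinusoidal carrier OATP1A1 that takes up organic anions such as bile acids and steroid conjugates. Its signals were 9.08, 9.19 and 8.70 in feed controls, 5.69, 4.04 and 4.91 with 1,5-naphthalenediamine, 4.54, 7.83 and 5.61 with N-(1-naphthyl)ethylenediamine and 8.09, 6.65 and 6.73 with pentachloronitrobenzene. With corn oil they were 8.88, 7.80 and 8.33, and with 2,3-benzofuran 5.44, 4.74 and 5.28. No chemical overlapped its own controls, but mice within a group differed by up to several log2 units, most in N-(1-naphthyl)ethylenediamine. The common effect was -3.18 ± 0.39 (SE), a 9.05-fold fall, with limma adjusted p = 1.67e-05 and single effects of -4.29, -3.29, -3.15 and -1.98. Each effect was called, and a second probe set gave -2.67.

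Of 10 hepatic uptake transporters tested, 5 were called lower and none higher, against 22.5% of all genes called lower, and the median was -0.15. On the deposited scale 2 were called lower and 2 higher, and without feed control animal 27 the count lower was 3. Slc22a7, the organic anion transporter OAT2, had effects of -1.66, -1.64, -0.23 and -0.36, and its common fall of 0.97 therefore came mostly from the 2 chemicals labelled positive. Hsd3b5, a steroid-reducing enzyme of male-biased liver expression, had -2.62, -0.93, -2.35 and -1.75. The means with 1,5-naphthalenediamine (3.66), 2,3-benzofuran (3.72) and N-(1-naphthyl)ethylenediamine (3.90) were under the floor of 4.25, so these falls have no exact size; with such values raised to the floor the common effect was -1.37 in place of -1.91. Its corn oil controls were 1.60 below the feed controls (limma adjusted p = 0.241), so 2,3-benzofuran was set against a lower baseline, and with corn oil as control for all 4 its common effect of -0.70 was no longer called (limma adjusted p = 0.156). Of 14 male-biased genes, 3 were called higher (21.4%, beside 18.7% of all genes) and 5 lower (35.7%, beside 22.5%). No shared direction was seen.

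The even falls were of another kind. Csdc2, a cold-shock domain RNA-binding protein, fell by 2.02 ± 0.16 (SE; limma adjusted p = 2.39e-07), from 7.44, 6.99 and 8.42 in feed controls to 5.58, 5.57 and 5.71 with 1,5-naphthalenediamine, 5.28, 5.60 and 5.68 with N-(1-naphthyl)ethylenediamine and 5.85, 5.80 and 5.98 with pentachloronitrobenzene. The gavage arm read 7.59, 6.89 and 7.41 with corn oil and 5.64, 5.56 and 5.78 with 2,3-benzofuran. The 12 treated arrays lay within less than a log2 unit of each other, the controls spread wider, and feed control animal 29 was the highest array. The effects were -2.18, -1.75, -2.25 and -1.89. The gene's other probe sets gave common effects of -0.40 and -0.71.

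Dennd6b, an exchange factor for Rab proteins, read 7.51, 7.50 and 8.58 in feed controls, 6.33, 6.61 and 6.44 with 1,5-naphthalenediamine, 6.19, 6.60 and 6.34 with N-(1-naphthyl)ethylenediamine, 6.51, 6.52 and 6.55 with pentachloronitrobenzene, 8.14, 7.37 and 7.45 with corn oil, and 6.44, 5.96 and 6.56 with 2,3-benzofuran. Its effects of -1.58, -1.44, -1.64 and -1.48 were nearly equal, and again animal 29 was highest. Its other probe set gave 0.14. Pik3cd, the leukocyte PI3-kinase subunit p110 delta, had effects of -1.78, -1.49, -1.95 and -1.66 and -0.27 on its other probe set, and Aif1l, an actin-binding protein, -1.61, -1.23, -1.61 and -1.55 and -0.10. In these 3 genes the second measurement gave a small part of the fall or none. Zfp3, a zinc finger protein, and Cacng7, a calcium channel gamma subunit better known in brain, fell by 1.35 ± 0.12 and 1.25 ± 0.17 (SE), each called in all 4. The effects were -1.45, -1.26, -1.21 and -1.49 for Zfp3 and -1.40, -1.14, -1.29 and -1.19 for Cacng7. Shh, the hedgehog ligand, fell by 1.32 ± 0.31 (SE; effects -1.43, -1.16, -1.36 and -1.35), but passed alone in 1 of the 4. Without feed control animal 29 its common effect was -0.67 (limma adjusted p = 0.0302).

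The largest falls were often read by probe sets open to cross-hybridisation. Csdc2, Dennd6b and Zfp3 above were read by such probe sets, and Zfp3 had no second probe set that passed the filter. Of the 28 falls of at least 1, 9 (32.1%) were read by probe sets that can bind related transcripts, against 4.37% of all genes tested; 16 had a second probe set, whose median common effect was -0.31. Of the called falls with a second probe set, 62.3% of 616 moved down in all 4 on it too, against 28.5% of the second probe sets of all tested genes; 5.52% were called in the opposite direction. Of the called rises, 39.8% of 1020 moved up in all 4 on the second, against 22.1% of all, and 10.6% were called opposite. Which of a gene's probe sets reads its transcript better was not tested.

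**Figure D4:**
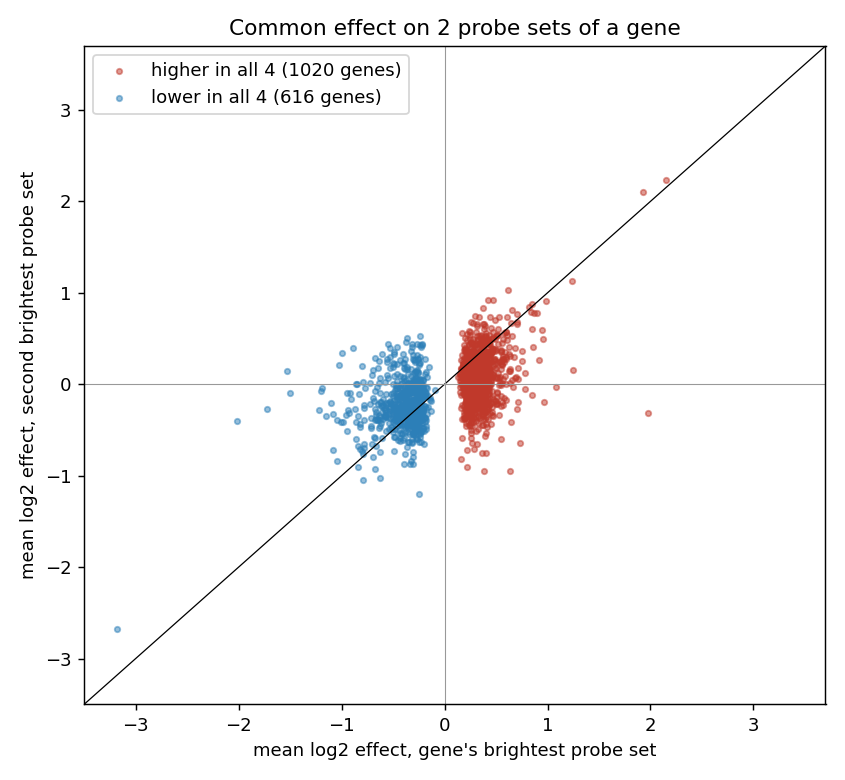
Common effect (log2) on the probe set used, the gene's brightest, against that on its second brightest, 1 point for each called gene of 1 direction with both (1020 rises, 616 falls), with the diagonal at equal effects. Most points lie nearer 0 on the second probe set, with a median of 0.11 for the rises and -0.24 for the falls.

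The direction of a called gene went with its signal level. Of genes with mean signal under 5, 64.4% were lower and 7.19% higher in all 4, with a median common effect of -0.23; of genes at 7 to 8, 7.83% were lower and 41.9% higher, with a median of 0.12. Of the 2569 called falls, 1358 (52.9%) had a mean under 5, against 94 (4.75%) of the called rises. Corn oil against feed control, where no chemical was given, had medians of -0.07 and 0.03 at the same levels. When the effect at each level was centred on its own trend instead, the medians became -0.01 and 0.01, and 1467 of the tested genes were called lower in all 4, of which 1205 were among the 2569. At 12 and above, falls again outnumbered rises, with 31.8% of genes lower and 15.4% higher in all 4 and a median of -0.06. The part of signal level in the falls was not tested further.

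**Figure D5:**
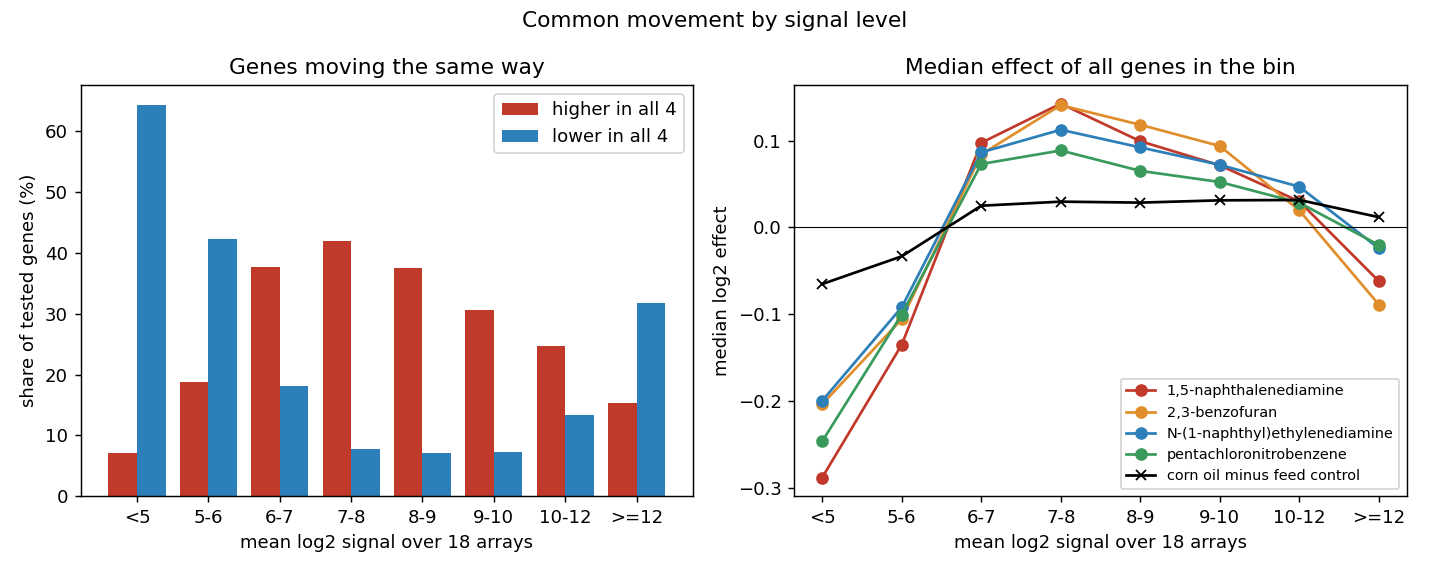
Share of tested genes (percent) that were higher or lower in all 4 chemicals (left) and the median reduced effect of each chemical and of corn oil against feed control (log2, right), by mean log2 signal. Falls prevail under 5, at 64.4%, and rises at 7 to 8, at 41.9%. At 12 and above falls prevail again, at 31.8%.

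Complement and coagulation genes, which code for secreted liver proteins, had a median signal of 11.14, and of all genes at 10 to 12, 13.4% were lower in all 4. Of the 29 tested genes of this list, 21 were called lower (72.4%, beside 22.5% of all genes) and none higher. The median was -0.22, and 14 fell in all 4. On the deposited scale 5 were called lower, with a median of -0.07, and 18 with the level trend taken off. The median per chemical was -0.40, -0.38, -0.03 and -0.06. C1s1, the protease that starts the classical complement pathway, read 10.55, 10.43 and 10.27 in feed controls, 9.79, 9.69 and 9.70 with 1,5-naphthalenediamine, 10.34, 10.43 and 10.29 with N-(1-naphthyl)ethylenediamine, 10.30, 10.33 and 10.50 with pentachloronitrobenzene, 10.37, 10.47 and 10.43 with corn oil, and 9.91, 10.04 and 9.97 with 2,3-benzofuran. The 1,5-naphthalenediamine and 2,3-benzofuran arrays lay below all controls and the others among them. Its effects were -0.87, -0.56, -0.22 and -0.19, the last 2 not called alone. Cfb, factor B of the alternative pathway, had -0.54, -0.54, -0.13 and -0.09, and C6, of the membrane attack complex, -1.04, -0.51, -0.66 and -0.53.

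Of 26 acute phase genes, 11 were called lower (42.3%, beside 22.5% of all genes) and 2 higher (7.69%, beside 18.7%). Their median was -0.24. The deposited scale gave 3 lower and 4 higher. Lbp, which binds bacterial lipopolysaccharide, had -0.61, -1.08, 0.12 and -0.19, and Itih4 -0.54, -0.65, 0.01 and -0.18. Pglyrp2, a secreted peptidoglycan hydrolase, fell by 1.32 and 0.67 under the chemicals labelled positive, and its effects were -0.13 and -0.13 under those labelled negative. Of 19 chaperones of the endoplasmic reticulum, 6 were called lower (31.6%, beside 22.5% of all genes) and none higher; without feed control animal 28, 3 were lower. Hspa5, the chaperone BiP, had -0.48, -0.27, -0.59 and -0.39, and Herpud1, of the degradation machinery, -0.43, -1.31, -0.14 and -0.55. With corn oil as control for all 4, Hspa5 was not called.

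Of 18 cell cycle genes, 6 were called lower (33.3%) and none higher, with a median of -0.19. Their median signal was 4.92, and of all genes under 5, 53.3% were called lower, with a median of -0.23, so the list was no lower than other genes of its level. Without feed control animal 29, 3 were called lower. Ccne1, cyclin E1, read 6.12, 5.77 and 6.21 in feed controls, 5.19, 5.11 and 5.33 with 1,5-naphthalenediamine, 5.01, 5.29 and 5.29 with N-(1-naphthyl)ethylenediamine, 5.30, 5.08 and 5.32 with pentachloronitrobenzene, 5.51, 5.69 and 5.57 with corn oil, and 5.23, 5.05 and 5.23 with 2,3-benzofuran. Every treated array lay below every control array. Its effects were -0.996, -0.53, -0.99 and -0.95, each called, and the other probe set gave -0.60. Ccnd1, cyclin D1, had -1.59, -1.17, -0.30 and -0.22. Of 9 fetal and tumour-associated genes, 6 were called lower and none higher at a median signal of 4.66, where 53.3% of all genes were called lower, and with the level trend taken off 1 was. Among 19 p53 targets, 6 were called higher (31.6%, beside 18.7%) and 2 lower, and 3 were higher without feed control animal 29. Trp53inp1, a p53-induced stress protein, rose by 0.53 ± 0.11 (SE; effects 0.57, 0.77, 0.41 and 0.38). Its other, dimmer probe set gave a common effect of -0.01, which was not called. Averaged over its probe sets, the Trp53inp1 rise was not called.

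Counts of cell type markers are read against the 22.5% of all genes called lower, and their part in the results was not tested. Of 8 hepatocyte markers 5 were called lower, with a median of -0.10. Their median signal was 13.39, and of all genes at 12 and above, 31.3% were called lower, with a median of -0.06. On the deposited scale none of the 8 was lower and the median was 0.05, and without feed control animal 29, 2 were lower. Alb, albumin, had a common effect of -0.09 (effects -0.09, -0.08, -0.09 and -0.11) that became 0.054 on the deposited scale and was not called without animal 29. Of 20 macrophage and Kupffer cell markers 5 (25%) were called lower, near that share, with a mean signal of 7.19 to 8.17 in treated and 7.39 to 8.08 in control arrays. Their count was 2 without feed control animal 28, and their median with pentachloronitrobenzene was 0.10. Of 16 endothelial markers 7 (43.8%) were called lower (6.98 to 7.45 in treated, 7.00 to 7.35 in control arrays), although on the deposited scale 3 were lower and 4 higher, and without pentachloronitrobenzene animal 18, 4 were lower. Of 8 lymphocyte markers 5 were called lower (4.91 to 5.26 against 5.09 to 5.22), of 6 neutrophil markers 3 (4.39 to 5.44 against 4.68 to 5.05), of 17 stellate cell and matrix markers 7 (6.60 to 7.18 against 6.80 to 7.07) and of 4 cholangiocyte markers 3 (4.77 to 5.23 against 5.05 to 5.26). Lymphocyte and neutrophil markers had median signals of 4.79 and 4.72, where 53.3% of all genes were called lower; without feed control animal 29 their counts were 3 and 1. The stellate cell count was 3 without feed control animal 28. None of these 7 lists had a member called higher on the probe set used. Of the markers, Stab2, a scavenger receptor of sinusoidal endothelium, had effects of -0.73, -0.69, -0.20 and -0.50, Vsig4 of Kupffer cells -0.76, -0.65, -0.36 and -0.10, and Pdgfrb of stellate cells -0.48, -0.41, -0.58 and -0.50. The other Pdgfrb probe set went the opposite way in all 4 (0.46, 0.20, 0.26 and 0.50), and its common effect of 0.36 was called higher. Averaged over its probe sets, Pdgfrb gave -0.04.

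Of 20 ribosomal protein genes 9 were called higher (45%, beside 18.7% of all genes) and none lower, with a median of 0.14, and none had unequal effects; on the deposited scale 19 were called higher. Rps6 led with 0.63 ± 0.10 (SE; effects 0.81, 0.46, 0.76 and 0.47), but its corn oil controls were 0.59 above the feed controls, and with corn oil as control for all 4 its rise of 0.20 was not called. Of 26 respiratory chain genes 7 were called higher (26.9%) and none lower, with a median of 0.06, and 3 were higher without feed control animal 28. With corn oil as control for all 4, none was called.

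Groups without a shared direction give the other side of the response. Of 20 cholesterol synthesis genes, 7 were called higher for the mean (35%, beside 18.7% of all genes). None of these was higher in all 4, and 14 of the 20 had unequal effects. The medians were 0.43, -0.33, -0.03 and 0.68. Without feed control animal 28, 2 were called higher. The corn oil controls were higher than feed controls by a median of 0.66 in this list. Of 26 interferon response genes, 24 had unequal effects, with medians of -0.41, -0.44, -0.02 and 0.87. In each direction 2 were called (7.69%), beside 18.7% of all genes higher and 22.5% lower. Of 18 circadian clock genes none was called (limma), and 10 had unequal effects.

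Both naphthylamines were given at the same 2000 ppm, in the same feed, against the same controls, and were compared directly. RNA integrity differed between them, at 8.8, 8.9 and 8.8 with 1,5-naphthalenediamine and 7.7, 8.1 and 7.7 with N-(1-naphthyl)ethylenediamine. 1,5-Naphthalenediamine has an amino group on each ring, and N-(1-naphthyl)ethylenediamine has a single ring nitrogen substituent that carries an aminoethyl chain and was given as the salt. Over all tested genes, limma called 369 (3.03%) higher and 289 (2.37%) lower with 1,5-naphthalenediamine than with N-(1-naphthyl)ethylenediamine. Among the 1977 shared rises, 125 (6.32%) were higher with 1,5-naphthalenediamine and 6 (0.303%) lower, and among the 2569 shared falls, 65 (2.53%) were lower and 1 (0.0389%) higher. These counts move with single mice: the 125 became 62 without 1,5-naphthalenediamine animal 5 and 183 without feed control animal 29, and the 65 became 21 without N-(1-naphthyl)ethylenediamine animal 14 and 91 without feed control animal 29. On the deposited scale they were 254 and 21, and with RNA integrity as a covariate 28 and 6. The part of RNA integrity in these differences was not tested further. Abcc4 differed by 2.66 (95% interval 2.06 to 3.27), Gstm3 by 2.29 (limma adjusted p = 2.54e-05), Ugdh by 2.11 and Nqo1 by 1.29 (limma adjusted p = 0.0024). Differences were not called for Cyp1a2, at 0.13 (-0.14 to 0.40; limma adjusted p = 0.597), Mtx3, at 0.36 (-0.12 to 0.84), Abcc3, at 0.31 (0.10 to 0.53; limma adjusted p = 0.086), Slco1a1, at -1.13 (-2.37 to 0.11), Csdc2, at 0.08 (-0.44 to 0.59) or Dennd6b, at 0.06 (-0.45 to 0.57). For Mtx3 and Slco1a1 these intervals allow differences of most of a log2 unit or more.

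The vehicle contrast sets mice gavaged with corn oil against mice on plain feed. Corn oil, gavage and chance cannot be told apart in it. Corn oil against feed control gave 9 genes called higher and 0 lower by limma, with 1035 at an unadjusted p under 0.05. Its median was 0.37 over the 19 large rises and -0.29 over the 28 large falls; the feed controls enter both quantities, so this is no independent comparison. For several named genes the corn oil difference was about as large as the weakest chemical effect or larger. It was 0.75 for Gstm3 beside 0.77, 1.12 for Cd36 beside 1.17, 0.71 for Gstm2 beside 0.15 and 0.33 for Ugdh beside 0.08. It was 0.35 for Pgd beside 0.34 and 0.59 for Rps6 beside 0.46. Among the falls it was -1.60 for Hsd3b5 beside -0.93, -0.48 for Ccne1 beside -0.53, -0.32 for Ccnd1 beside -0.22 and -0.32 for Hspa5 beside -0.27.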

How the data were processed

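Liver RNA (10 ug a mouse) of 18 mice was hybridised, 1 mouse to an Affymetrix mouse expression array. The values are log2 signals as the authors deposited them; how they were background-corrected and normalized is not given in the sources used here. Array number, 3 to a group, limits the precision. Of 45101 probe sets, 64 controls were left out; 34945 have a single gene symbol by platform annotation, 932 have several and 9160 lack one, and 34741 symbols were matched to RefSeq. Probe sets above their array's median on at least 3 arrays were kept (20712 with 1 gene), then the brightest of each gene (12169 genes). limma 3.58.1 (R 4.3.3, statmod 1.5.0) fitted 6 group means with 12 residual degrees of freedom and its variance prior following the mean signal; the common effect, the 4 single effects, their equality (F), corn oil against feed control and 1,5-naphthalenediamine against N-(1-naphthyl)ethylenediamine were contrasts, each Benjamini-Hochberg adjusted over all genes. The last was added to the planned tests later.

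On simulated data for 12169 genes with the common effect added to 200, 89% of changes of 0.5 and 98% of changes of 1 were called, as were 0.178% of unchanged genes. In the measured data 41.2% of genes were called, many more than the 200 changed here. These rates therefore do not give the share of false calls among the genes reported. The members and the 42 gene lists were chosen with earlier results of these data known. Genes named are, among called genes with no overlap in any chemical, the 8 of each direction with the largest mean and the 8 with the largest weakest effect, the 3 of each list with the largest moderated statistic, and the 4 most unequal; others are said to be chosen later. Other scalings, filters, controls, probe set rules, array weights, RNA integrity as covariate and leaving out each mouse were tried.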

Additional observations from a re-analysis of the deposited data

Results flagged for a closer look

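4 shared genes differed most among the chemicals by the F statistic of the equality of the 4 effects in limma. Gstm2 had an F of 100, Ugdh 87.2, Pglyrp2 79.3 and Gstp1 61.3. Gstm2, Ugdh and Gstp1 were highest with 1,5-naphthalenediamine or 2,3-benzofuran, and Pglyrp2 was lowest with 1,5-naphthalenediamine. In each of them the weakest effect was that of N-(1-naphthyl)ethylenediamine, for Pglyrp2 by less than the error.

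Control probe sets for 18S ribosomal RNA, which no comparison uses, were above all 6 control arrays on 6 treated arrays. They read 11.6 on N-(1-naphthyl)ethylenediamine animal 14, 11 on 2,3-benzofuran animal 6, 10.3 on N-(1-naphthyl)ethylenediamine animal 12, 9.97 on 1,5-naphthalenediamine animal 4, 7.93 on 2,3-benzofuran animal 10 and 6.97 on N-(1-naphthyl)ethylenediamine animal 15, against 6.11 to 6.67 on the control arrays. The part of this signal in the gene results was not tested beyond leaving out the 5 highest of these arrays.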

How the results depend on the processing

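No paired analysis was possible because animal numbers are unique and no group shares them. Of the called genes of 1 direction (1977 higher, 2569 lower), all 1977 and 1279 kept their call on the deposited scale, 1044 and 1205 with the level trend taken off, 1432 and 1570 with quantile normalization, and 1103 and 1806 without the 5 arrays of high 18S signal, which leaves 1 array each of N-(1-naphthyl)ethylenediamine and 2,3-benzofuran, assumed to vary like the other groups. The numbers below are, where they moved by over 1.5 times, genes called higher and lower for the common effect (2270, 2743), those also of 1 direction, those called in each chemical (63, 462), unequal genes (1144), unequal genes of 1 direction (291), corn oil calls (9, 0), and shared rises (125) and falls (65) larger with 1,5-naphthalenediamine than with N-(1-naphthyl)ethylenediamine. The cause was not tested unless fewer arrays or genes give it. Deposited scale: 5256, 1370, 4752 and 1279, each chemical 627 and 170, corn oil 15, pair 254 and 21. Level trend: 1618 and 1467 lower, each 168. Quantile: each 212 lower. No filter on low values: 4525 and 4048 higher, each 256 and 252, corn oil 14, pair 237 and 24. Above the median on all arrays: each 37 higher. Mean of both controls: each 95 higher, unequal 1864 and 574. Corn oil as control for all: 1210, 1442, 1124 and 1382, each 17 and 107, unequal 1837 and 465. Mean without 1,5-naphthalenediamine: unequal of 1 direction 144. Mean without 2,3-benzofuran: 1270 and 1230 higher, each 114. Mean without N-(1-naphthyl)ethylenediamine: each 144 higher, unequal 605. Mean without pentachloronitrobenzene: each 213 higher. Without the 18S arrays: 1345 and 1162 higher, each 2 and 19, unequal 268 and 51, corn oil 3, pair 21 and 2. RNA integrity as covariate: each 4 and 99, unequal 388 and 100, corn oil 4, pair 28 and 6. Array weights: unequal 1983 and 492, corn oil 1 lower. Adjusted p under 0.01: 1187 and 1082 higher, each 2 and 116, unequal 476 and 117, corn oil 3, pair 56 and 15.

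Leaving out each mouse gave 1805 to 2267 higher and 1953 to 2761 lower, 1572 to 1974 and 1837 to 2574 of 1 direction, 21 to 66 and 201 to 508 in each chemical, 827 to 1600 and 185 to 409 unequal, 2 to 36 and 0 to 3 for corn oil, and 62 to 183 and 21 to 91 for the pair. Feed control animal 29 gave the lowest counts of shared genes and 29 and 201 in each chemical, pentachloronitrobenzene animal 18 gave 21 higher, 1,5-naphthalenediamine animal 5 gave 62 for the pair and N-(1-naphthyl)ethylenediamine animal 14 gave 21. Among the 65 named genes other than Cyp2b10, 47 kept direction and call in every alternative. Of 2450 gene and alternative pairs 27 lost and 7 gained the call and 6 reversed: Alb (deposited 0.054, level trend 0.017, no filter 0.019), Cux2 averaged over probe sets 0.11, Smim22 without probe sets of shared sequence -0.19 and Cyp1a1 without 1,5-naphthalenediamine -0.14. Signal near the array background limits the dim falls.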
